A study of Mus musculus with 47 samples.

Results

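The response of Suv39h1 WT mouse lymphomas to Adriamycin was measured in 14 lymphomas, each under Adriamycin and native, which gave 28 of the 47 arrays of the series. The 28 arrays were chosen by their genotype label and paired by the lymphoma number in their labels. The lymphomas arose in Eµ-myc mice, whose B cells carry a Myc transgene and develop aggressive B cell tumours. Cells from lymph nodes received a retrovirus carrying the survival gene Bcl2 and were selected in puromycin for 48 h, so both groups carry Myc and Bcl2. The feeder layer of every culture was NIH 3T3, a mouse fibroblast line, irradiated with 20 Gy. The ADR group was exposed to Adriamycin (doxorubicin, a drug that damages DNA) at 0.05 µg/ml for 5 days, and the native group was left untreated. The labels call the ADR group senescent and the native group non-senescent. A set of 5 Suv39h1- lymphomas, also measured under ADR and native, serves as a comparison at the end. No label states the age of the mice.

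Senescence is a lasting exit from the cell cycle after damage or oncogene stress. Senescent cells stop making the RNA of replication and division genes through pocket proteins and the DREAM complex, which sit at E2F and CHR elements. They stay metabolically active, enlarge their lysosomes and often secrete chemokines, cytokines and matrix proteases. Bcl2 blocks the apoptosis that Adriamycin would otherwise cause in Myc-driven B cells, and the H3K9 methyltransferase Suv39h1 is known for its part in the arrest of this tumour model.

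Levels are RMA values on the log2 scale, changes are ADR minus native, and the threshold for a call was 0.05 on the adjusted p of limma (Benjamini-Hochberg). Medians of the 28 arrays lay between 4.35 and 4.43. Control signals for RNA quality did not differ in their means beyond their spread between ADR and native: the 18S signal differed by 0.11 (adjusted p = 0.607, exact sign-flip test over 14 pairs), the Gapdh 3′ minus 5′ value by 0.10 (adjusted p = 0.355) and that of Actb by -0.03 (adjusted p = 0.75). Their SD over arrays was wider under ADR than native, at 0.56 and 0.23 for 18S, 0.23 and 0.055 for Gapdh and 0.20 and 0.14 for Actb. The difference in spread was not tested. The mean level of the 18 measured genes of the B cell receptor list was 8.20 to 10.04 (median 9.25) under ADR and 8.93 to 9.47 (median 9.21) native. Cd79a, a signalling chain of the B cell receptor, ranged from 7.28 to 10.81 (median 8.88) under ADR and from 9.27 to 10.46 (median 9.87) native. Over 200 probe sets that mark a lymphoma, arrays of lymphomas 2949, 5043, 5766 and 6054 correlated at 0.43 to 0.83. Both arrays of 1 lymphoma correlated at 0.64 or more (median 0.83), and any other pair at 0.77 at most. The probe sets were chosen from these arrays for small differences within a lymphoma, which raises the value for 1 lymphoma. Lymphomas 403 and 5560 had a mean of 0.67, above 2949 with 6054 (0.55) and 5043 with 6054 (0.50), and were not merged. Whether lymphomas 2949, 5043, 5766 and 6054 are separate was not tested, and counting these 4 as 1 left 5290 genes called in place of 5489.

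Markers of other cells moved with the treatment. The fibroblast list, which covers collagens and other matrix genes, had 24 of 27 measured members higher. Its mean level was 4.89 to 8.80 (median 6.44) under ADR and 4.30 to 5.30 (median 4.76) native, and its change ran from -0.06 in lymphoma 1467 to 3.91 in lymphoma 403. The macrophage and monocyte list had 16 of 22 members higher. It stood at 6.26 to 8.59 (median 8.14) under ADR and at 5.10 to 7.66 (median 6.16) native, and its mean was above 0 in 14 of 14 lymphomas, at 1.89 in 1467. The complement genes C1qa, C1qb and C1qc of that list were not called. Of 10 neutrophil markers 3 were higher, and none was called among 10 T cell and 5 erythroid markers. In whole-culture RNA, fewer cells of a type and less RNA per cell cannot be told apart. For this reason most groups below are also given for lymphoma 1467, where fibroblast markers changed least, and as the value fitted at a fibroblast list change of 0. That fit takes the fibroblast change of each lymphoma as a covariate and reads its value at the low end of the range. Of the 93 genes named below that were called higher, 46 were also called higher there, and of the 77 called lower, 53 were also called lower. The part of feeder and myeloid cells in the results below was not tested beyond these values.

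A total of 5489 of 18194 genes were called, 30.2% of those tested, with 2925 higher (16.1%) and 2564 lower (14.1%). The median change of all genes was 0.00 and the median absolute change of the called genes 0.51. When each array was centred on its median, the median of all genes moved by -0.11 and 31.6% of the called genes were higher, in place of 53.3%. A change of at least 1 was seen in 611 higher and 366 lower genes, and of at least 2 in 110 higher and 35 lower. In 14 of 14 pairs 528 called genes were higher and 524 lower. The ADR and native arrays did not overlap at all for 134 genes, 0.737% of those tested, of which 102 were lower and 32 higher under ADR. At a fibroblast list change of 0 the fit called 2151 genes (11.8%). Of the 2925 higher genes 22% were also called higher there, and of the 2564 lower genes 28.2% were also called lower.

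**Figure D1:**
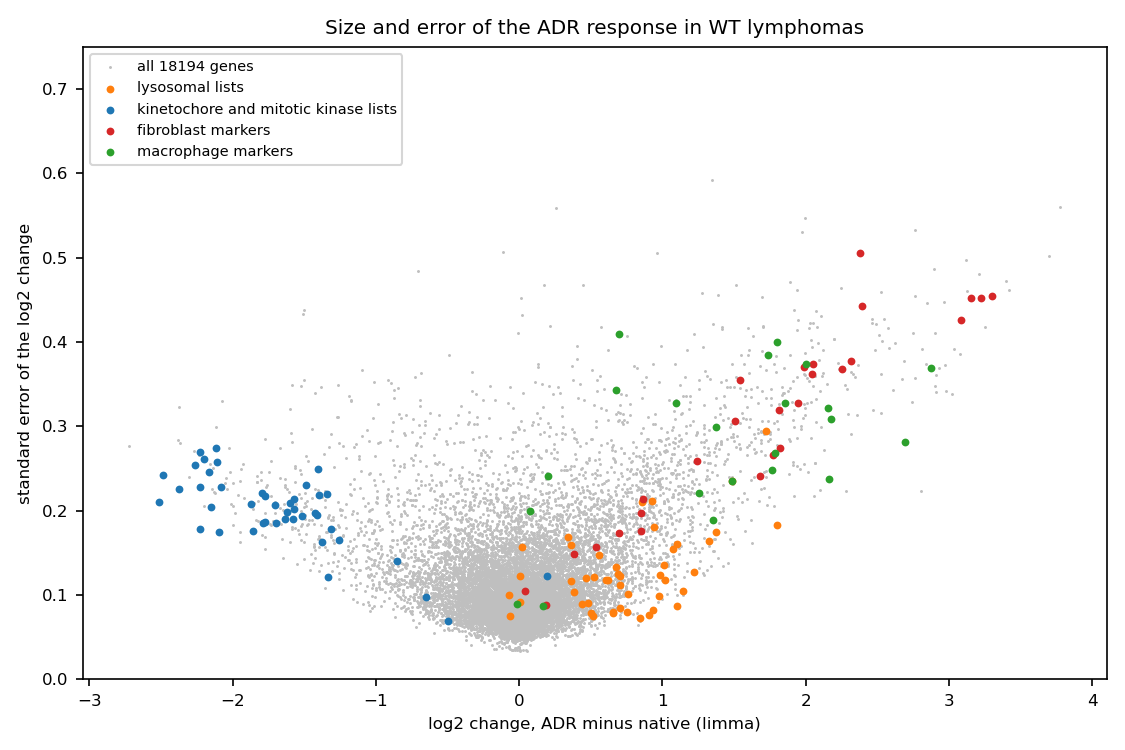
Each point is a gene, with its log2 change (ADR minus native) on the x axis and the standard error of that change on the y axis. Nearly all kinetochore and mitotic kinase genes lie left of 0, most lysosomal genes lie right of 0 at small errors, and the fibroblast markers that rose most have the larger errors (Col1a2, 3.09 with SE 0.43).

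The 8 rising genes with the largest moderated t of limma (change over error) included Ap3d1, Piezo1, Rragc, Dcun1d3, Ahnak2, Lamp1, Atp6v0b and Atp6v1e1. Ap3d1, a subunit of the adaptor that sorts cargo to lysosomes, ranged from 8.84 to 9.38 (median 9.24) under ADR and from 7.79 to 8.76 (median 8.43) native, a rise of 0.83 (SE 0.06, adjusted p = 1.18e-08). Its groups did not touch, and the rise was 1.05 in lymphoma 1467. Piezo1, a mechanically gated cation channel, stood at 8.77 to 9.61 (median 9.15) under ADR and 7.98 to 8.65 (median 8.28) native, and rose by 0.84 (SE 0.07, adjusted p = 1.36e-08). Rragc, a GTPase that brings the growth regulator mTORC1 to lysosomes, had 9.81 to 10.77 (median 10.25) under ADR and 9.10 to 9.65 (median 9.45) native and rose by 0.92 (SE 0.08). For Piezo1 and Rragc every ADR array was above every native array. Dcun1d3, which acts in cullin neddylation, rose by 1.14 (SE 0.10) with no overlap, and the giant scaffold protein gene Ahnak2 by 2.8 (SE 0.22), with 4.13 in lymphoma 1467.

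The 8 falling genes with the largest moderated t included Haus1, Nsmce4a, Tdp1, Dcps and Pradc1, besides Bub1b, Plk1 and Pold2 described below. Haus1, a subunit of the augmin complex that branches spindle microtubules, had 7.83 to 8.52 (median 8.28) under ADR and 9.07 to 9.86 (median 9.37) native. It fell by 1.14 (SE 0.09, adjusted p = 1.18e-08) and its groups did not overlap. Nsmce4a, part of the SMC5/6 repair complex, stood at 8.52 to 9.31 (median 8.92) under ADR and 9.66 to 10.38 (median 9.95) native and fell by 1.04 (SE 0.08), again with no overlap. Tdp1, which removes trapped topoisomerase I from DNA ends, fell by 1.03 (SE 0.08). Dcps, a scavenger enzyme of decapped mRNA ends, fell by 1.09 (SE 0.09) and Pradc1 by 1.16 (SE 0.10), both in 14 of 14 lymphomas.

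**Figure D2:**
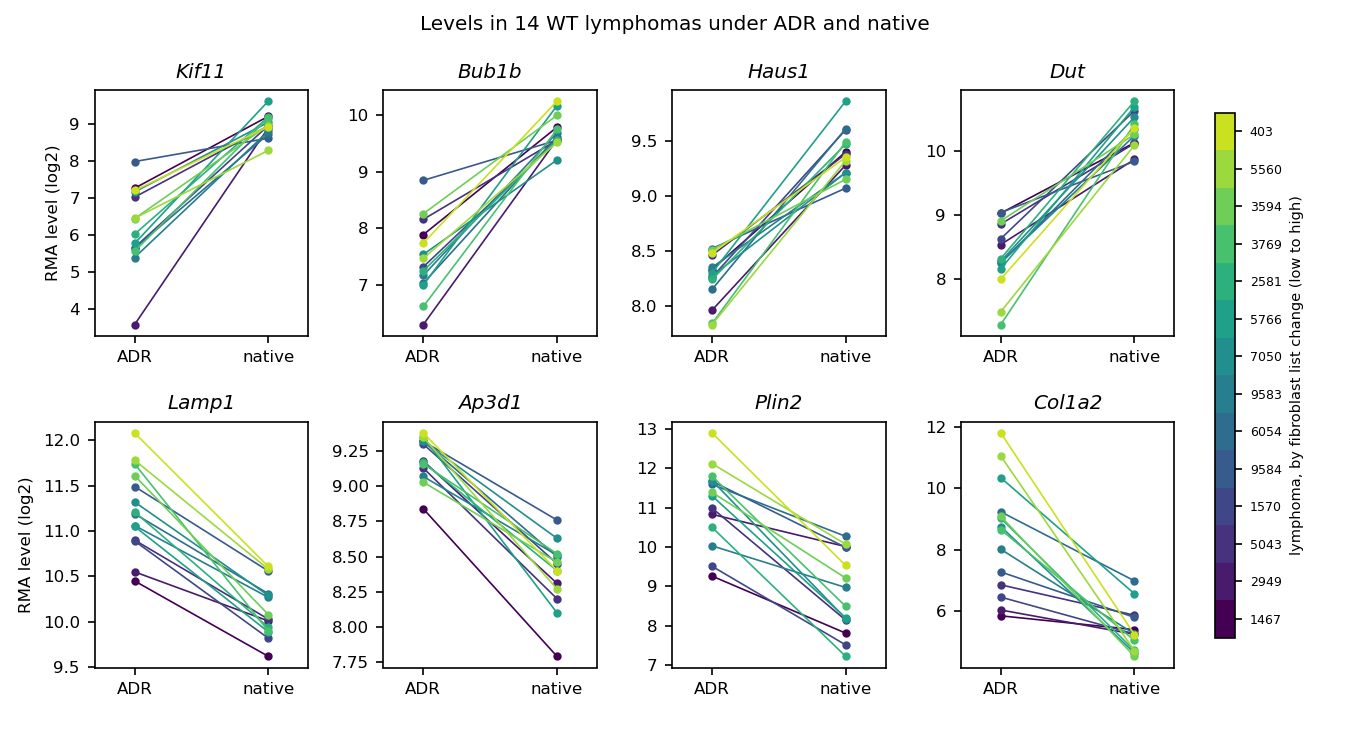
Levels (log2, y axis) of 8 genes under ADR (left) and native (right), with a line for each of the 14 WT lymphomas, coloured by the change of its fibroblast list. Kif11, Bub1b, Haus1 and Dut fell and Lamp1, Ap3d1 and Plin2 rose in all 14 lymphomas. Col1a2, itself a member of the fibroblast list, rose most where that list did.

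Genes that start replication were lower throughout. All 19 measured genes of origin licensing and the replicative helicase fell, with a median of -1.23, where the median of all genes was 0.00. The list mean was -0.82 in lymphoma 1467 and nearest 0 in 9584, at -0.07. At a fibroblast list change of 0, 15 of 19 members were also lower. Dbf4, which activates the origin kinase Cdc7, ranged from 7.35 to 9.08 (median 8.36) under ADR and from 9.23 to 10.02 (median 9.62) native and fell by 1.27 (SE 0.13, adjusted p = 1.87e-07). Its ADR and native arrays did not overlap. Gins1, which joins the MCM ring in the helicase, had 4.88 to 7.20 (median 6.37) under ADR and 7.12 to 8.77 (median 7.95) native, with a small overlap. Mcm6, a subunit of that ring, stood at 9.40 to 10.99 (median 10.22) under ADR and 10.99 to 11.98 (median 11.37) native and fell by 1.23 (SE 0.13, adjusted p = 2.5e-07).

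The E2F element was searched as TTCCCGC or TTGGCGC on both strands of the RefSeq promoters (GRCm38.p6, 250 bases before to 50 after the start). Of 14 list members with a promoter 8 held it (57.1%), against 10.3% of the 14453 tested genes with a promoter. The Mcm6 promoter is shown because Mcm6 had the smallest p among called holders. Its stretch is chr1:128359737-128359886 on the minus strand, and the capitals mark the E2F matches.
Mcm6: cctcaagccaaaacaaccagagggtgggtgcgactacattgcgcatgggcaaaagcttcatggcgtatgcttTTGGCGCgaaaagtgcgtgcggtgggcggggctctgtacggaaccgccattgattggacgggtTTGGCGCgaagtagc
A match describes the letters only, and binding was not measured here.

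At the replication fork all 22 measured genes fell (median -1.24), and 20 of them were lower at a fibroblast list change of 0. The mean of this list was -0.79 in lymphoma 1467 and -0.09 in 9584. Pold2, a subunit of the lagging strand polymerase delta, had 6.66 to 8.35 (median 7.67) under ADR and 8.43 to 9.35 (median 8.97) native and fell by 1.35 (SE 0.11, adjusted p = 1.18e-08). Its groups were separate in all arrays. Pola1, the catalytic subunit of the priming polymerase, fell by 1.99 (SE 0.20), but only 1 of its 2 probe sets moved in that direction. Deoxynucleotide synthesis was lower in 8 of 10 genes (median -1.10), and 4 were lower at a fibroblast list change of 0. Its mean was -0.62 in lymphoma 1467 and -0.10 in 9584. Dut, which keeps uracil out of DNA by removing dUTP, ranged from 7.29 to 9.04 (median 8.30) under ADR and from 9.84 to 10.78 (median 10.31) native, and fell by 1.95 (SE 0.16). Tk1, the thymidine kinase of S phase, ranged from 5.87 to 7.94 (median 7.05) under ADR and from 7.99 to 9.47 (median 8.99) native, and fell by 1.82 (SE 0.19). The groups of Dut and Tk1 did not overlap.

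Of 19 G1 and S phase cyclins, kinases and E2F factors 12 were lower and 2 higher (median -0.85). The list mean in lymphoma 1467 was -0.05, and 7 members were lower at a fibroblast list change of 0. Mybl2, a transcription factor of G2 and mitotic genes, had 4.70 to 6.35 (median 5.34) under ADR and 6.30 to 8.25 (median 7.13) native and fell by 1.78 (SE 0.15, adjusted p = 1.93e-08). Cdk2, the S phase kinase, fell by 1.02 (SE 0.11) in 13 of 14 lymphomas. Among 7 measured CDK inhibitors 1 was higher and 2 were lower, and at a fibroblast list change of 0 none was higher and 2 were lower. Over all genes 16.1% were called higher and 14.1% lower. Cdkn1a (p21) ranged from 11.05 to 12.19 (median 11.59) under ADR and from 8.97 to 12.0 (median 10.67) native and rose by 1.11 (SE 0.20, adjusted p = 0.000118). Its ADR arrays lay in a narrow upper band within which several native arrays also fell. Cdkn2d (p19INK4d) fell by 1.02 (SE 0.17). The p16 and Arf gene, Cdkn2a, had 3.33 to 7.49 (median 4.08) under ADR and 3.33 to 7.31 (median 4.25) native, with a change of 0.01 (SE 0.45, adjusted p = 0.989).

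The 5 lists of the mitotic machinery had the lowest medians of the 73 lists. Kinesins of mitosis were lower in 11 of 13 genes (median -1.67), kinetochore and centromere genes in 20 of 20 (median -1.54), and mitotic kinases with the checkpoint and anaphase promoting complex in 22 of 23 (median -1.79). Condensin, cohesin and sister separation genes were lower in 16 of 16 (median -1.71) and spindle and cytokinesis genes in 15 of 17 (median -1.64). No member of these 5 lists was called higher. At a fibroblast list change of 0 the counts were 11, 20, 21, 14 and 15 lower, and the means in lymphoma 1467 ran from -1.25 to -1.79. Kif11, the motor that pushes spindle poles apart, had 3.59 to 7.99 (median 6.24) under ADR and 8.29 to 9.62 (median 8.96) native and fell by 2.72 (SE 0.28, adjusted p = 1.28e-07). Its lowest value, 3.59, was that of lymphoma 2949, and its highest ADR value was below every native array.

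Bub1b, a kinase-like protein of the spindle checkpoint, ranged from 6.30 to 8.85 (median 7.39) under ADR and from 9.21 to 10.25 (median 9.60) native, with no overlap, and fell by 2.23 (SE 0.18, adjusted p = 1.18e-08). Ube2c, the ubiquitin carrier of the anaphase promoting complex, had 6.72 to 10.17 (median 9.24) under ADR and 10.73 to 11.77 (median 11.12) native and fell by 2.15 (SE 0.20). Plk1, the polo kinase of mitotic entry, had 5.45 to 8.03 (median 6.81) under ADR and 8.11 to 9.43 (median 9.01) native and fell by 2.09 (SE 0.17). None of these genes had an ADR array at a native level. Cenpm, a kinetochore protein, had 5.46 to 6.77 (median 6.25) under ADR and 7.09 to 7.96 (median 7.5) native, which also did not overlap. Cenpa, the histone of centromeres, fell by 1.86 (SE 0.18), the condensin subunits Ncapd2 and Ncapg2 by 2.2 (SE 0.21) and 1.84 (SE 0.19), and Racgap1 of the cytokinetic furrow by 2.04 (SE 0.23). Tacc3, a spindle clamp, fell by 1.57 (SE 0.18) and the motor Kif23 by 2.12 (SE 0.22).

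Cyclins and a proliferation marker were also lower. Aurkb, the kinase that corrects faulty attachments of chromosomes, ranged from 5.03 to 8.46 (median 6.94) under ADR and from 8.35 to 10.09 (median 9.42) native and fell by 2.52 (SE 0.21, adjusted p = 1.37e-08). Ccna2, the cyclin of S phase and G2, stood at 6.06 to 9.73 (median 8.62) under ADR and 10.05 to 11.34 (median 10.72) native and fell by 2.37 (SE 0.23). Its groups did not overlap, while Aurkb overlapped at the edge of the native range. The mitotic cyclin Ccnb2 fell by 2.49 (SE 0.24). Mki67, the gene of the Ki-67 proliferation antigen, had 6.84 to 10.52 (median 8.6) under ADR and 9.88 to 11.39 (median 10.86) native and fell by 2.31 (SE 0.24). For all 4 genes the change was smallest in lymphoma 9584 and largest in 2949, where it was -3.98 for Aurkb, -4.72 for Ccna2, -4.94 for Ccnb2 and -4.20 for Mki67.

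The CHR element TTTGAA and the CCAAT box, read on both strands, were searched in the promoters of the mitotic kinase list. CHR was held by 11 of 19 members with a promoter (57.9%), against 13.4% of all tested genes with one, and the CCAAT box by 15 of 19 (78.9%), against 38.2%. With only the 200 bases before the start, the CHR share was 31.6% against 8.86%. Bub1b was the called holder with the smallest p for both, so its whole promoter at chr2:118597961-118598260 on the plus strand is shown, with the CCAAT match (here ATTGG) and the CHR match in capitals.
Bub1b: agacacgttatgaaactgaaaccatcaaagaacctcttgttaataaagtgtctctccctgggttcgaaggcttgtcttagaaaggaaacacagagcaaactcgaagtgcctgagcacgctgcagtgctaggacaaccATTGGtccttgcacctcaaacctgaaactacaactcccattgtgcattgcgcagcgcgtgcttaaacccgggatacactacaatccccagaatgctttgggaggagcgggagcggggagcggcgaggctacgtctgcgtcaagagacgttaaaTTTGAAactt
The CHR match begins at base 41 after the start and the CCAAT match at base -113.

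All 19 homologous recombination and Fanconi genes were lower (median -1.19), and 16 were lower at a fibroblast list change of 0. The list mean was -0.99 in lymphoma 1467 and -0.03 in 9584. Fanci, a clamp of interstrand crosslink repair, ranged from 5.49 to 6.48 (median 5.87) under ADR and from 6.58 to 7.45 (median 6.91) native, with no overlap, and fell by 1.05 (SE 0.12). Its partner Fancd2 fell by 1.86 (SE 0.20). Among 17 genes of end joining, mismatch and excision repair 8 were lower and 2 higher (median -0.38), and 1 was lower at a fibroblast list change of 0. The mean of that list in lymphoma 1467 was -0.01. The mismatch protein Pms2 fell by 0.81 (SE 0.11) and the uracil glycosylase Ung by 1.18 (SE 0.16). Damage checkpoint genes were lower in 12 of 15 (median -0.60), with -0.39 in lymphoma 1467 and 5 lower at a fibroblast list change of 0. H2ax, the histone variant phosphorylated at breaks, had 7.83 to 9.59 (median 8.76) under ADR and 9.11 to 11.07 (median 10.29) native and fell by 1.65 (SE 0.14, adjusted p = 2.01e-08). Topbp1, an activator of the checkpoint kinase ATR, fell by 1.14 (SE 0.12).

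Top2a, the topoisomerase that Adriamycin traps, had 7.23 to 10.91 (median 9.48) under ADR and 10.66 to 11.82 (median 11.34) native and fell by 2.0 (SE 0.23, adjusted p = 6.44e-07). The groups overlapped only at the top of the ADR range. Abcc1, an efflux pump that can export the drug, stood at 8.98 to 10.88 (median 9.91) under ADR and 8.28 to 9.45 (median 9.03) native and rose by 0.92 (SE 0.11, adjusted p = 8.41e-07) in 13 of 14 lymphomas. In lymphoma 1467 its change was -0.17, and at a fibroblast list change of 0 it was 0.39 (adjusted p = 0.122).

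Of 19 p53 arrest and feedback targets 10 rose and none fell (median 0.53), and of 19 death and repair targets 10 rose and 4 fell (median 0.35). The arrest list mean ran from -0.52 in lymphoma 2949 to 1.20 in lymphoma 1570 and was above 0 in 12 of 14. It was 0.57 in lymphoma 1467, against 0.03 for the death and repair list. Of 19 arrest targets 1 was called at a fibroblast list change of 0, with a median of 0.48, and of the death and repair targets 5 were higher and 3 lower there. With arrays centred 9 arrest targets were higher and 4 lower, and 6 death and repair targets were higher and 4 lower. Phlda3, an inhibitor of the kinase Akt, had 8.06 to 10.08 (median 9.47) under ADR and 6.49 to 9.33 (median 7.65) native and rose by 1.72 (SE 0.24, adjusted p = 5.74e-06). Mdm2, the ubiquitin ligase of p53, had 9.79 to 11.56 (median 10.26) under ADR and 8.44 to 10.40 (median 9.01) native and rose by 1.26 (SE 0.18). Both genes had overlapping groups and were higher in 12 of 14 lymphomas. Ddb2, which recognises ultraviolet damage, fell by 1.18 (SE 0.22), with 5.19 to 6.98 (median 6.03) under ADR and 6.26 to 8.79 (median 7.28) native. Polh, a polymerase that copies past lesions, fell by 0.87 (SE 0.10).

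Lysosomal membrane and proton pump genes were higher in 20 of 21 (median 0.84) and hydrolases in 20 of 26 (median 0.58), with none lower. The means of both lists were above 0 in 14 of 14 lymphomas, and in 1467 they were 0.37 and 0.58. At a fibroblast list change of 0, 12 membrane genes were higher and none lower, and 10 hydrolases were higher and 1 lower. Lamp1, the main glycoprotein of the lysosomal membrane, ranged from 10.45 to 12.08 (median 11.20) under ADR and from 9.62 to 10.61 (median 10.06) native and rose by 1.10 (SE 0.09, adjusted p = 1.18e-08). The proton pump subunit Atp6v0b had 9.79 to 10.93 (median 10.42) under ADR and 9.21 to 9.83 (median 9.47) native and rose by 0.90 (SE 0.08). The ADR and native arrays of Lamp1 and of Atp6v0b overlapped only at the edges of their ranges. A further pump subunit, Atp6v1e1, rose by 0.84 (SE 0.07), with 0.38 in lymphoma 1467. Ctsd, the aspartic protease cathepsin D, had 10.02 to 12.49 (median 11.51) under ADR and 8.90 to 10.94 (median 9.51) native and rose by 1.80 (SE 0.18), and the peptidase Tpp1 rose by 1.15 (SE 0.10). Macrophages, whose markers rose in the same arrays, also hold much lysosomal RNA, and their part was not tested.

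The E-box GTCACGTG, part of the element bound by the lysosomal factor TFEB, was held by 5 of 17 membrane list members with a promoter (29.4%) and 2 of 23 hydrolases (8.70%), against 3.42% of all tested genes with a promoter. Lamp1 was the called holder with the smallest p in the membrane list, and the stretch chr8:13159061-13159210 on the plus strand is shown with its match in capitals, which reads GTCACGTG on the opposite strand.
Lamp1: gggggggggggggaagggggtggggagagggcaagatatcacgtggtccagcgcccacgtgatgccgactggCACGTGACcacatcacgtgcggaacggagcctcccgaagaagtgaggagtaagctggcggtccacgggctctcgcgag
The match begins at base -28 from the start.

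Autophagy genes rose in 13 of 19 and fell in 1 (median 0.39), with a mean of -0.15 in lymphoma 1467 and 2 members higher and 1 lower at a fibroblast list change of 0. Sqstm1 (p62), which carries cargo to autophagosomes, had 10.36 to 12.25 (median 11.41) under ADR and 9.55 to 10.98 (median 10.11) native and rose by 1.29 (SE 0.12, adjusted p = 6.2e-08). Map1lc3b, an LC3 protein of the autophagosome, had 10.81 to 11.18 (median 10.95) under ADR and 10.20 to 10.66 (median 10.43) native and rose by 0.53 (SE 0.06). Its groups did not overlap, but 1 of its 4 probe sets moved the other way, and the probe set with the largest variance gave -0.21, which was not called.

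The NRF2 and oxidative stress list rose in 12 of 20 genes with none lower (median 0.59), and its mean was above 0 in 14 of 14 lymphomas, at 0.36 in 1467. It had 5 members higher and 1 lower at a fibroblast list change of 0. Nfe2l2 (NRF2 itself) had 9.80 to 10.92 (median 10.23) under ADR and 7.76 to 9.76 (median 9.44) native, with no overlap, and rose by 0.93 (SE 0.12, adjusted p = 2.44e-06). Lymphoma 1467 had the largest rise, 2.09. Sod2, the mitochondrial superoxide dismutase, rose by 0.86 (SE 0.12). Iron genes were split, with 5 of 10 higher and 1 lower, and 2 were higher at a fibroblast list change of 0. The transferrin receptor gene Tfrc fell by 0.67 (SE 0.13) and the phagosomal metal transporter Slc11a1 rose by 1.44 (SE 0.26). Unfolded protein and integrated stress genes rose in 9 of 20 with none lower (median 0.27), among them the chaperone Dnajb9 at 0.73 (SE 0.10) and the calcium-binding chaperone Calr at 0.49 (SE 0.08). The mean of this list in lymphoma 1467 was -0.09, and at a fibroblast list change of 0 1 member was higher and 1 lower. With arrays centred 7 were higher and 1 lower.

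Sterol synthesis and lipid storage moved in opposite directions. Cholesterol synthesis and uptake genes fell in 14 of 19 (median -0.80) with a list mean below 0 in every lymphoma, from -1.52 in 2581 to -0.11 in 3594, and at -0.62 in 1467. Srebf2, the master regulator of sterol genes, had 6.59 to 8.13 (median 7.23) under ADR and 7.62 to 9.31 (median 8.36) native and fell by 1.01 (SE 0.10, adjusted p = 6.75e-08). Stard4, a sterol carrier, fell by 1.4 (SE 0.13), and Hmgcs1, which makes HMG-CoA, by 1.03 (SE 0.20), with 8.01 to 9.92 (median 8.96) under ADR and 8.51 to 11.22 (median 9.84) native. The sterol element TCACNCCAC stood in 1 of 15 promoters of this list, that of Hmgcs1 (6.67%, against 1.18% of all). Of its members 4 were lower at a fibroblast list change of 0, with a median of -0.59.

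Genes of cholesterol export and lipid handling rose in 8 of 12 and fell in 1 (median 0.83), above 0 in 14 of 14 lymphomas and at 0.85 in lymphoma 1467. Of its members 3 were higher and 1 lower at a fibroblast list change of 0. Plin2, which coats lipid droplets, had 9.26 to 12.90 (median 11.35) under ADR and 7.22 to 10.27 (median 8.73) native and rose by 2.28 (SE 0.22, adjusted p = 7.87e-08). The scavenger receptor Cd36 had 9.24 to 11.96 (median 11.25) under ADR and 7.36 to 10.60 (median 9.26) native and rose by 1.89 (SE 0.28). Lipoprotein lipase, Lpl, ranged from 5.75 to 11.15 (median 10.20) under ADR and from 5.53 to 11.79 (median 7.38) native and rose by 1.91 (SE 0.35), with 4.29 in lymphoma 1467. All 3 are also made by macrophages, and for Lpl the groups overlapped over nearly their whole range. Fatty acid synthesis fell in 6 of 13 and rose in 1 (median -0.23), and 4 were lower at a fibroblast list change of 0, with the elongase Elovl6 lower by -1.18 (SE 0.23) and the carboxylase Acaca by -0.50 (SE 0.10).

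Serine, one-carbon and nucleotide synthesis genes fell in 17 of 21 (median -0.50). The list mean in lymphoma 1467 was -0.10, and at a fibroblast list change of 0 4 members were lower and 1 higher. Psat1, a serine synthesis enzyme, had 9.05 to 10.51 (median 9.58) under ADR and 10.26 to 11.05 (median 10.68) native and fell by 1.03 (SE 0.10). Prps1, which makes the ribose phosphate donor of nucleotides, had 8.15 to 9.30 (median 8.93) under ADR and 9.34 to 10.15 (median 9.90) native, with no overlap, and also fell by 1.03 (SE 0.11). Respiratory chain and ATP synthase genes fell in 13 of 22 by small amounts (median -0.24), led by Uqcrfs1 of complex III at -0.59 (SE 0.05, no overlap) and Atp5c1 at -0.34 (SE 0.04). Their mean in lymphoma 1467 was -0.17, and 3 were lower at a fibroblast list change of 0. Glycolysis and glucose uptake fell in 7 of 18 and rose in 1 (median -0.35), with the aldolase Aldoc at -1.41 (SE 0.22) and the pyruvate dehydrogenase kinase Pdk1 at -1.0 (SE 0.13). The glycolysis mean in lymphoma 1467 was -0.76, and 6 members were lower at a fibroblast list change of 0. The cytosolic chaperonin subunit Tcp1 fell by 0.47 (SE 0.06), but most cytosolic chaperones were not called. Of 17 measured 3 were lower, near the 14.1% of all genes, and 1 was higher (median -0.06). At a fibroblast list change of 0 none of the chaperones was lower (median 0.10).

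Ribosome biogenesis fell in 10 of 22 genes with none higher (median -0.23). Its list mean ran from -1.27 in lymphoma 5560 to 0.82 in lymphoma 2949 and was 0.52 in 1467. At a fibroblast list change of 0 none was lower, 6 were higher and the median was 0.46, so the direction of this list turned with that covariate. The nucleolar proteins Ncl and Fbl fell by 0.49 (SE 0.10) and 0.58 (SE 0.12), and their values at a fibroblast list change of 0 were -0.01 and 0.12. Myc ranged from 8.86 to 11.77 (median 10.61) under ADR and from 10.46 to 12.08 (median 11.28) native, and fell by 0.78 (SE 0.16, adjusted p = 0.000621) in 12 of 14 lymphomas with 0.12 in lymphoma 1467 and 0.06 at a fibroblast list change of 0. The probe sets of Myc and Bcl2 may also read the transgene and the retrovirus, which was not tested. Within the Myc network the antagonist Mxd3 fell by 1.25 (SE 0.20) and Mnt rose by 0.43 (SE 0.08). Of the 2 subunits of an amino acid carrier, Slc7a5 fell by 0.57 (SE 0.15) and Slc3a2 rose by 0.27 (SE 0.08), and Slc3a2 was not called with arrays centred or at a fibroblast list change of 0 (-0.09).

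**Figure D3:**
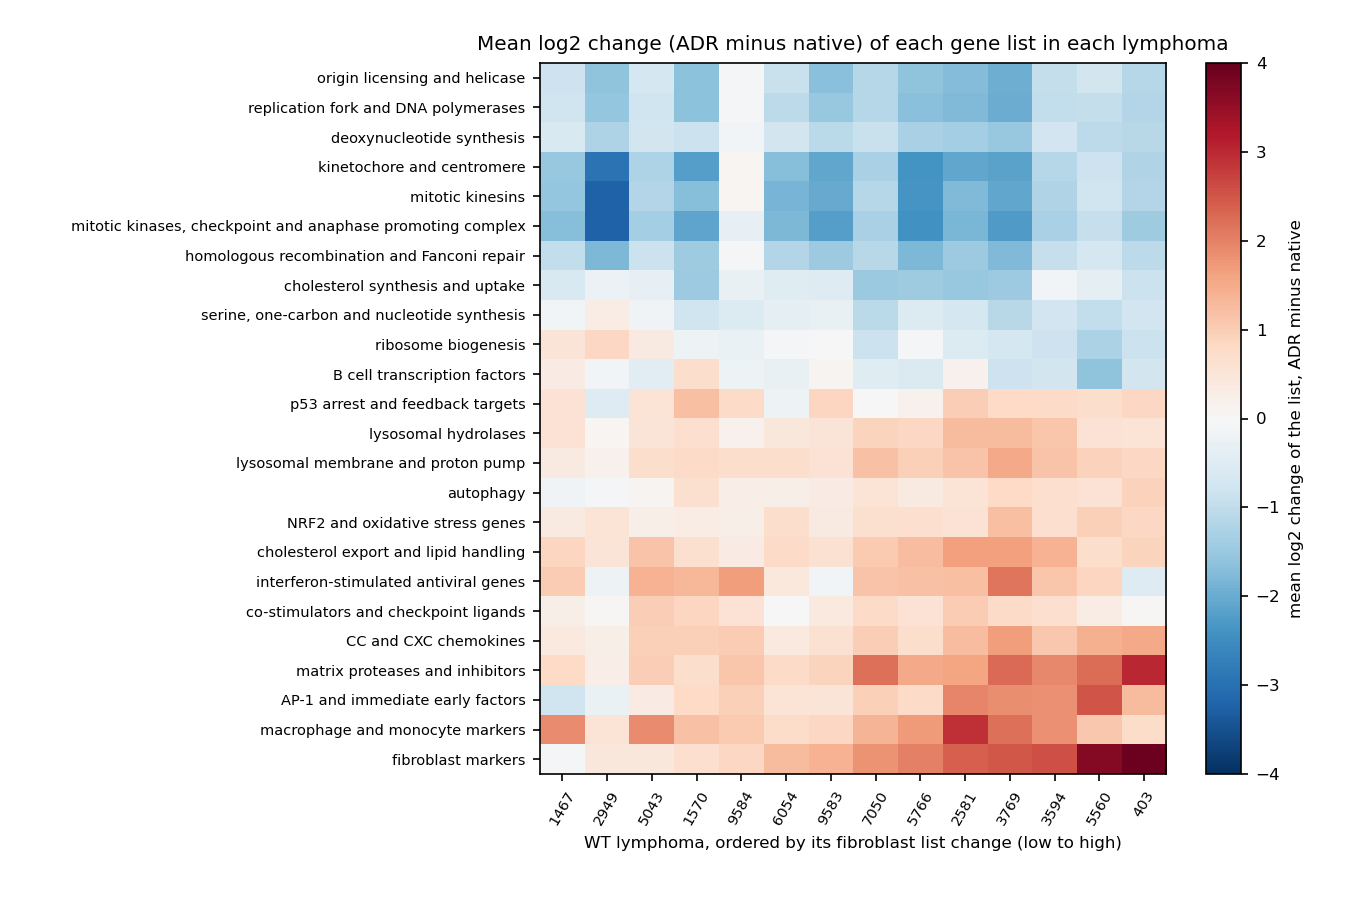
Mean log2 change (ADR minus native) of 24 gene lists (rows) in the 14 WT lymphomas (columns, ordered by the change of their fibroblast list), with red for higher and blue for lower under ADR. The kinesin, kinetochore and mitotic kinase lists are deepest in lymphoma 2949 and nearest 0 in 9584, while the matrix protease row reaches its highest value, 3.03, in lymphoma 403 at the right end.

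Chemokines were higher in 12 of 24 (median 0.52), cytokines and growth factors in 21 of 34 with 1 lower (median 0.73), and matrix proteases and inhibitors in 17 of 20 (median 1.20). All 3 list means were above 0 in 14 of 14 lymphomas and lowest in 2949, at 0.24, 0.19 and 0.25. In lymphoma 1467 they were 0.38, 0.43 and 0.79. At a fibroblast list change of 0 the counts were 3, 4 and 2 higher and 0, 1 and 1 lower, and the medians 0.17, 0.03 and 0.07. Cxcl2, a neutrophil attractant, had 6.0 to 10.80 (median 7.88) under ADR and 3.26 to 7.96 (median 5.10) native and rose by 2.90 (SE 0.35, adjusted p = 8.76e-07). It was 2.16 at a fibroblast list change of 0 (adjusted p = 0.00489). Ccl2, a monocyte attractant, rose by 2.91 (SE 0.34), with 0.44 in lymphoma 1467 and 1.37 at a fibroblast list change of 0 (adjusted p = 0.0846). Cxcl5 had 3.45 to 11.66 (median 6.13) under ADR and 1.71 to 3.76 (median 3.27) native, and its rises ran from 0.24 in lymphoma 2949 to 8.35 in 403.

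The kB site GGNNTTTCC was found in 6 of 16 chemokine promoters (37.5%), against 5.77% of all, with both strands read. Cxcl2 was the called holder with the smallest p, and chr5:90903732-90903881 on the plus strand holds 2 matches, in capitals.
Cxcl2: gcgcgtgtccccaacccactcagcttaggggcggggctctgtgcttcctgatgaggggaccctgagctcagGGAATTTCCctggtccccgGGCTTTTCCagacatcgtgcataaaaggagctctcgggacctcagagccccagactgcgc
They begin at bases -96 and -77 from the start.

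Among cytokines, Tnf had 6.98 to 8.87 (median 8.17) under ADR and 6.07 to 7.71 (median 6.83) native and rose by 1.19 (SE 0.15, adjusted p = 1.74e-06). Its value at a fibroblast list change of 0 was 1.08 (adjusted p = 0.00499) and in lymphoma 1467 it was 1.24. Csf1, the growth factor of macrophages, had 7.47 to 10.36 (median 8.49) under ADR and 6.43 to 7.72 (median 6.71) native and rose by 1.67 (SE 0.21). Kitl, the stem cell factor, rose by 3.12 (SE 0.46) and Ccl7 by 2.84 (SE 0.37), with 0.15 and 1.31 in lymphoma 1467. Pla2g7, which inactivates platelet activating factor, rose by 2.27 (SE 0.35), and Lta4h, which makes leukotriene B4, fell by 0.69 (SE 0.09) with no overlap. Ptgs2 (cyclooxygenase 2) ranged from 5.08 to 11.02 (median 7.45) under ADR and from 2.23 to 7.14 (median 4.56) native, and its changes ran from -0.76 in lymphoma 1467 to 6.52 in 3594. Cfp, the complement factor properdin, rose by 2.04 (SE 0.33) and the complement receptor C3ar1 by 1.84 (SE 0.34).

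Mmp13, a collagenase, had 4.60 to 9.88 (median 8.6) under ADR and 3.26 to 7.53 (median 4.59) native and rose by 2.97 (SE 0.37, adjusted p = 1.55e-06), with 3.28 in lymphoma 1467. Adam8, a sheddase of leukocytes, had 6.28 to 10.51 (median 8.91) under ADR and 4.53 to 8.43 (median 6.28) native and rose by 2.10 (SE 0.22). Both were still called at a fibroblast list change of 0, at 2.34 (adjusted p = 0.0466) and 1.75 (adjusted p = 0.00714). Lgals3 (galectin 3) had 8.62 to 13.43 (median 10.60) under ADR and 6.67 to 11.24 (median 8.38) native and rose by 2.06 (SE 0.22), but by 0.17 in lymphoma 1467. Lgals1 rose by 0.74 (SE 0.10). AP-1 letters TGANTCA, on both strands, stood in 5 of 15 promoters of the matrix protease list (33.3%), against 6.33% of all. The Mmp13 stretch chr9:7272407-7272556 on the plus strand carries its match in capitals.
Mmp13: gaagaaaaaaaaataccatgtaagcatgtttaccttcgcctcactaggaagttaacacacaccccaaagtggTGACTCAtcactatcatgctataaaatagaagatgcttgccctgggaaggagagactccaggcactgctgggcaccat
It begins at base -35 from the start.

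AP-1 and immediate early factors were higher in 11 of 19 with none lower (median 1.02), and the list mean was above 0 in 12 of 14 lymphomas, but -0.79 in lymphoma 1467 and 1 member was called at a fibroblast list change of 0 (median -0.31). Klf6, a zinc finger factor, had 8.23 to 10.35 (median 9.25) under ADR and 6.79 to 8.40 (median 7.42) native and rose by 1.74 (SE 0.22, adjusted p = 1.32e-06), with 0.75 in 1467. Klf4 rose by 2.61 (SE 0.34) with -0.31 in 1467. Egr1 was among the genes with the widest spread, from -3.29 in lymphoma 2949 to 5.18 in 5560, and was not called (1.34, SE 0.59, adjusted p = 0.0934). Genes of MAP kinase and receptor feedback rose in 9 of 16 and fell in 2, among them the phosphatases Dusp4 at 1.75 (SE 0.28) and Dusp6 at 1.76 (SE 0.34). The mean of that list in lymphoma 1467 was -0.21, and at a fibroblast list change of 0 none was higher and 1 was lower. There Dusp4 stood at 0.16 (adjusted p = 0.834) and Dusp6 at -0.01 (adjusted p = 0.991). In the TGF-beta list 9 of 17 were higher, with the receptor Tgfbr2 at 0.79 (SE 0.12) and the inhibitor of differentiation Id1 at 1.64 (SE 0.29). The TGF-beta mean in lymphoma 1467 was -0.03, and at a fibroblast list change of 0 1 member was higher and 1 lower, with Tgfbr2 at 0.98 (adjusted p = 0.000914) and Id1 at 0.09 (adjusted p = 0.891).

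NF-kB subunits and feedback inhibitors rose in 8 of 16 (median 0.39). Their mean in lymphoma 1467 was -0.31, and 3 were higher at a fibroblast list change of 0. Rela, the p65 subunit, had 8.69 to 9.33 (median 8.94) under ADR and 8.11 to 8.79 (median 8.38) native and rose by 0.59 (SE 0.06, adjusted p = 2.97e-07) in 14 of 14 lymphomas, with 0.73 in lymphoma 1467. Its groups met only over a narrow stretch. Tnip1, which restrains NF-kB signalling, rose by 0.56 (SE 0.09). In the TNF receptor family 7 of 17 were higher (median 0.26), with a mean of -0.26 in lymphoma 1467 and 1 member higher at a fibroblast list change of 0. Tnfrsf1b, the second TNF receptor, had 7.60 to 10.87 (median 9.43) under ADR and 6.52 to 9.32 (median 7.83) native and rose by 1.49 (SE 0.21), and the lymphotoxin receptor Ltbr rose by 1.01 (SE 0.16).

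**Figure D4:**
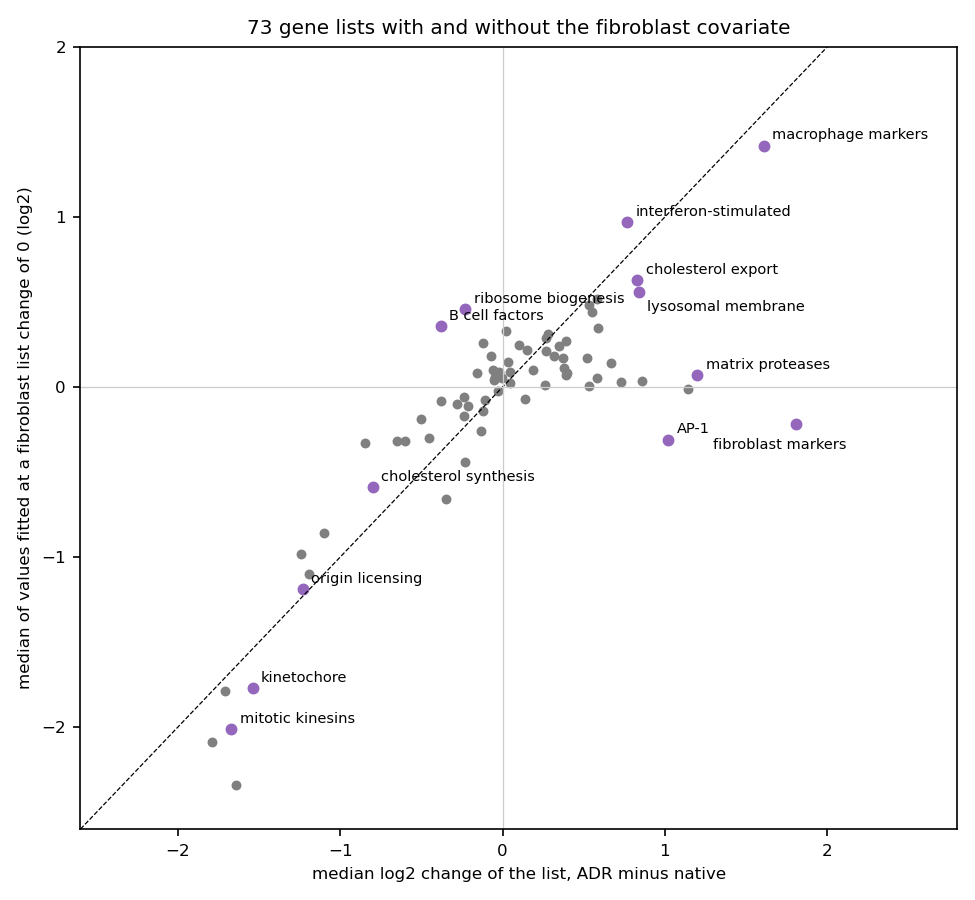
Each point is 1 of 73 gene lists, with the median log2 change of its members (ADR minus native) on the x axis and the median of the values fitted at a fibroblast list change of 0 on the y axis. The dashed line marks equal values. Mitotic lists lie below or close to it, and the macrophage and lysosomal membrane lists stay above 0 at 1.42 and 0.56. The matrix protease list (0.07) lies near 0 on the y axis and the AP-1 list (-0.31) below 0. The fibroblast list (-0.22) supplied the covariate, which sets the mean of its fitted values to 0.

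Interferon-stimulated antiviral genes rose in 21 of 26 with none lower (median 0.77). Its mean was highest in lymphoma 3769, at 2.14, and lowest in 403, at -0.51, where fibroblast markers rose most. It was 1.00 in lymphoma 1467, and at a fibroblast list change of 0 the median was 0.97 with 8 genes higher. Ifit1, which binds foreign RNA ends, had 3.14 to 8.01 (median 5.70) under ADR and 2.58 to 6.19 (median 3.37) native and rose by 2.12 (SE 0.36, adjusted p = 6.82e-05) in 14 of 14 lymphomas. Oasl2 had 3.77 to 8.95 (median 6.59) under ADR and 3.12 to 6.99 (median 4.30) native and rose by 2.07 (SE 0.33) in 12 of 14. The groups of both genes overlapped widely, and the smallest changes were in lymphoma 2949, at 0.22 and -0.42. Among interferon factors and nucleic acid sensors 11 of 24 were higher (median 0.27), and 4 at a fibroblast list change of 0, such as the RNA sensor Ddx58 (RIG-I) at 0.67 (SE 0.12) and the receptor chain Ifngr2 at 0.84 (SE 0.14). Zbp1, a sensor of nucleic acids that can trigger necroptosis, rose by 1.38 (SE 0.22) and the inflammasome gene Nlrp3 by 0.63 (SE 0.13).

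The interferon response letters GAAANNGAA, on both strands, were in 11 of 18 promoters of that list (61.1%), against 7.35% of all. Ifit1 was the called holder with the smallest p. Its stretch chr19:34640709-34640858 on the plus strand holds 3 matches, of which the first 2 overlap, in capitals.
Ifit1: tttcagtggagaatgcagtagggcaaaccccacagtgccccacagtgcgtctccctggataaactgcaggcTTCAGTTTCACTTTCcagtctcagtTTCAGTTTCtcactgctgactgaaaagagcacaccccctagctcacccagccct
They begin at bases -109, -103 and -84 from the start.

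Among 18 genes of the B cell receptor and its signalling 4 were higher and 2 lower (median 0.02, and -0.09 with arrays centred). These shares are near those of all genes, of which 16.1% were called higher and 14.1% lower. The list mean was 0.42 in lymphoma 1467, and 4 members were higher and 1 lower at a fibroblast list change of 0. Cd22, an inhibitory coreceptor, had 7.95 to 10.64 (median 8.55) under ADR and 9.32 to 10.94 (median 10.30) native and fell by 1.43 (SE 0.16, adjusted p = 3.36e-07) in 14 of 14 lymphomas. The kinase Syk had 8.95 to 11.14 (median 10.11) under ADR and 8.14 to 9.86 (median 9.34) native and rose by 0.85 (SE 0.14), but its probe set of largest variance gave -0.24, not called. Transcription factors of B cells fell in 7 of 15 and rose in 1 (median -0.38), from a mean of -1.62 in lymphoma 5560 to 0.70 in 1570, and at a fibroblast list change of 0 none was lower (median 0.36). The B cell repressor gene Bach2 fell by 1.5 (SE 0.35), with -5.36 in lymphoma 5560 and 0.60 at a fibroblast list change of 0, and Tcf3 (E2A) fell by 0.77 (SE 0.13). Cd79a fell by 0.72 (SE 0.22, adjusted p = 0.0125) in 9 of 14 lymphomas and was 0.18 at a fibroblast list change of 0. The BAFF receptor gene Tnfrsf13c fell by 1.29 (SE 0.25), the surface protein gene Cd24a by 1.09 (SE 0.22) and the precursor B cell gene Vpreb3 by 2.08 (SE 0.33). Their kinds of genes did not fall as groups. Of 17 B cell surface and trafficking genes 3 were lower and 2 higher (median -0.07). Of 12 precursor B cell genes 2 were lower and 1 higher (median 0.03). Both lower shares are near the 14.1% of all genes called lower, and none was lower at a fibroblast list change of 0.

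MHC class I and peptide loading genes were higher in 7 of 11 (median 0.32), and co-stimulators and checkpoint ligands in 9 of 15 (median 0.55), none lower in either. With arrays centred the counts were 3 and 7 higher, and at a fibroblast list change of 0 they were 1 and 4. The means in lymphoma 1467 were -0.07 and 0.24. Cd80, a ligand of CD28, had 6.78 to 8.89 (median 7.94) under ADR and 5.42 to 7.48 (median 6.49) native and rose by 1.39 (SE 0.21, adjusted p = 1.63e-05) in 14 of 14, with 1.96 in lymphoma 1467. Vsir (VISTA) had 7.78 to 9.39 (median 8.69) under ADR and 5.66 to 8.46 (median 7.39) native and rose by 1.41 (SE 0.19). Both are also made by myeloid cells. The adhesion ligand Icam1 rose by 0.63 (SE 0.14) and the nectin-like receptor Pvr by 0.86 (SE 0.16), which stood at -0.03 with the fibroblast covariate. MHC class II and its factors had 4 of 11 lower and none higher (median -0.13), with H2-Ob, a chaperone subunit of peptide loading, at -1.23 (SE 0.28) and Rfxap at -0.44 (SE 0.07). Of the class II list 1 was lower at a fibroblast list change of 0. With the alike lymphomas counted once, 3 were lower and the median was 0.07.

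Survival genes of the Bcl2 family were higher in 5 of 14 and lower in 2 (median 0.19), but with arrays centred 2 were higher and 3 lower (median 0.08), and at a fibroblast list change of 0 2 were higher and none lower. Bcl2l1 (Bcl-xL) had 7.28 to 8.67 (median 7.76) under ADR and 6.43 to 7.88 (median 6.91) native and rose by 0.93 (SE 0.15, adjusted p = 3.54e-05) in 13 of 14, with -0.58 in lymphoma 1467. Mcl1 rose by 0.42 (SE 0.09). Bcl2 on its brightest probe set had 9.18 to 11.46 (median 10.29) under ADR and 10.64 to 12.11 (median 11.14) native and fell by 0.93 (SE 0.21, adjusted p = 0.00104). Of its 5 probe sets 2 moved in that direction, and the mean of all was no longer called.

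Nuclear lamina and HMG genes were lower in 8 of 13 and higher in 2 (median -0.65), and at a fibroblast list change of 0 4 were lower and 1 higher. Hmgb2 had 8.71 to 11.16 (median 9.50) under ADR and 11.07 to 12.29 (median 11.60) native and fell by 2.0 (SE 0.18, adjusted p = 3.83e-08), and Hmgb3 fell by 1.44 (SE 0.14) with no overlap. Lmnb1, the lamin lost in many senescent cells, had 6.22 to 8.0 (median 7.17) under ADR and 7.34 to 9.47 (median 8.81) native and fell by 1.62 (SE 0.19), with -0.73 at a fibroblast list change of 0 (adjusted p = 0.142). Hmga2, an architectural protein of embryonic and mesenchymal cells, had 5.45 to 11.54 (median 8.15) under ADR and 4.50 to 5.94 (median 5.10) native and rose by 2.98 (SE 0.34), from 0.70 in lymphoma 1467 to 5.87 in 403.

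H3K9 methyltransferase, HP1 and DNA methylation genes were lower in 10 of 20 and higher in 1 (median -0.28), with 5 lower and 1 higher at a fibroblast list change of 0. Cbx5 (HP1 alpha) had 7.19 to 8.47 (median 7.92) under ADR and 8.06 to 9.65 (median 9.11) native and fell by 1.26 (SE 0.12), and Uhrf1, which guides maintenance methylation, fell by 1.67 (SE 0.20). Polycomb genes were lower in 8 of 18 and higher in 2, with the methyltransferase Ezh2 at -1.26 (SE 0.18) and its partner Suz12 at -0.65 (SE 0.08). Histone chaperones and linker histones were lower in 8 of 13 and higher in 1, with Asf1b, which feeds histones to the fork, at -1.47 (SE 0.18) and the variant histone H2az1 at -0.98 (SE 0.12). Of the polycomb list 2 were lower and 1 higher at a fibroblast list change of 0, and of the chaperone list 3 were lower.

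Lymphomas differed in how much they changed. Genes with a change of at least 1 in a single pair numbered from 407 higher in lymphoma 9583 to 1724 higher in 403, and from 301 lower in 9584 to 1160 lower in 5560. The share of called genes that moved in the called direction ran from 70.3% in lymphoma 2949 and 74.8% in 1467 to 97.6% in 3769. The leading component of the 14 changes held 36.9% of their variance. Its weight was 0.49 in lymphoma 403 and 0.46 in 5560, where the fibroblast list changed by 3.91 and 3.66, and -0.35 in 2949 and -0.39 in 1467, where that list changed by 0.44 and -0.06. In lymphoma 9584 the kinesin list stood at 0.09, in 2949 at -3.22. The genes with the widest spread included matrix genes. Fn1 (fibronectin) changed by -0.42 in lymphoma 1467 and 6.81 in 403, Lox (lysyl oxidase) by -0.55 and 7.13, and Bgn (biglycan) by -1.18 and 6.34. Fn1, Lox and Bgn belong to the fibroblast list, whose own change was lowest in 1467 and highest in 403.

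Other genes with a wide spread had their lowest change in lymphoma 1467. Cpe, a protease that trims peptide hormones, had 5.07 to 11.28 (median 7.66) under ADR and 2.65 to 6.42 (median 4.6) native and rose by 3.4 (SE 0.47), with -1.35 in 1467 and 6.25 in 403. Prnp, the prion protein gene, rose by 2.89 (SE 0.49) and the actin regulator Pfn2 by 1.39 (SE 0.46, adjusted p = 0.0219), with -1.04 and -2.59 in 1467. Pfn2 was no longer called when lymphoma 2581, 3769, 403 or 5560 was left out. Dcn (decorin, a matrix proteoglycan) rose by 2.38 (SE 0.51), on 1 of its 2 probe sets. Fitted at a fibroblast list change of 0, Prnp stood at -0.16, Pfn2 at -1.28 and Dcn at -0.71, none of them called. Dcn is itself a member of the fibroblast list, whose fitted values average 0 by construction.

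Further genes stood among the 15 largest rises seen in 14 of 14 pairs. Prss23, a serine protease, had 3.33 to 10.16 (median 6.23) under ADR and 2.54 to 3.60 (median 2.86) native and rose by 3.25 (SE 0.42, adjusted p = 2.09e-06). Its smallest change was 0.77 in lymphoma 1467 and its largest 7.30 in 403. Emp1, a membrane protein of epithelial and mesenchymal cells, rose by 3.08 (SE 0.39), with 0.50 in 1467. Only 1 of its 2 probe sets rose, and the other changed by -0.08. Grb10, an adaptor that restrains insulin signalling, rose by 3.03 (SE 0.39) and App, the amyloid precursor gene, by 2.93 (SE 0.37), with 2.29 and 2.56 in 1467. None of these 4 was called at a fibroblast list change of 0, where they stood at 0.81, 0.87, 0.70 and 1.26.

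Integrins and adhesion genes rose in 11 of 18 and fell in 1 (median 0.38), and none was called at a fibroblast list change of 0. Itgb1, the common beta chain of matrix receptors, had 8.67 to 9.75 (median 9.12) under ADR and 8.22 to 9.15 (median 8.73) native and rose by 0.48 (SE 0.08), with 0.02 in lymphoma 1467. Cd44, the hyaluronan receptor, rose by 0.69 (SE 0.11) in 14 of 14 lymphomas. Alcam, an adhesion ligand of CD6, rose by 1.42 (SE 0.23), with -0.55 in 1467. In the plasma cell list 2 of 10 were higher (median 0.10), near the 16.1% of all genes called higher, and none was called at a fibroblast list change of 0. The secretory factor Xbp1 of that list rose by 0.58 (SE 0.14), in 12 of 14 lymphomas.

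Among genes called and higher in at least 13 of 14 lymphomas, the 10 with the largest rise in lymphoma 1467 included the genes that follow. Ms4a6d, a membrane protein gene of macrophages, rose by 3.02 (SE 0.34) over all lymphomas and by 4.44 in 1467. Calb2 (calretinin, a calcium binding protein) rose by 1.44 (SE 0.35), with 5.14 in 1467, and the chemokine Cxcl3 by 1.98 (SE 0.53), with 3.89. Lyz2, the lysozyme of macrophages, had 10.28 to 13.76 (median 12.53) under ADR and 6.24 to 12.37 (median 10.99) native and rose by 2.0 (SE 0.37), with 4.02 in 1467. Acod1, the itaconate enzyme of activated macrophages, had 8.02 to 11.94 (median 10.72) under ADR and 5.28 to 11.94 (median 7.74) native and rose by 2.33 (SE 0.36), with 4.29 in 1467. The lectin gene Clec4a3 rose by 2.2 (SE 0.40), with 5.28 in 1467. Mmp8, a neutrophil collagenase, rose by 2.55 (SE 0.43) and Marchf1, a ligase that turns over MHC class II, by 2.04 (SE 0.29), with 3.95 and 4.21 in 1467. Both Lyz2 and Acod1 also had native arrays at high levels, up to 12.37 and 11.94. Further myeloid genes were also high in most lymphomas. Ms4a7, of the macrophage list, had 6.10 to 10.11 (median 9.15) under ADR and 4.74 to 7.89 (median 5.76) native and rose by 2.69 (SE 0.28, adjusted p = 1.75e-07). The lectin receptors Clec4d and Clec4e rose by 2.87 (SE 0.37) and 2.16 (SE 0.24). Lcn2, an iron-binding secreted protein of the neutrophil list, had 6.63 to 11.63 (median 9.40) under ADR and 3.92 to 8.98 (median 6.83) native and rose by 2.74 (SE 0.33). All 4 were called at a fibroblast list change of 0, at 2.10, 2.84, 2.51 and 2.06.

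**Figure D5:**
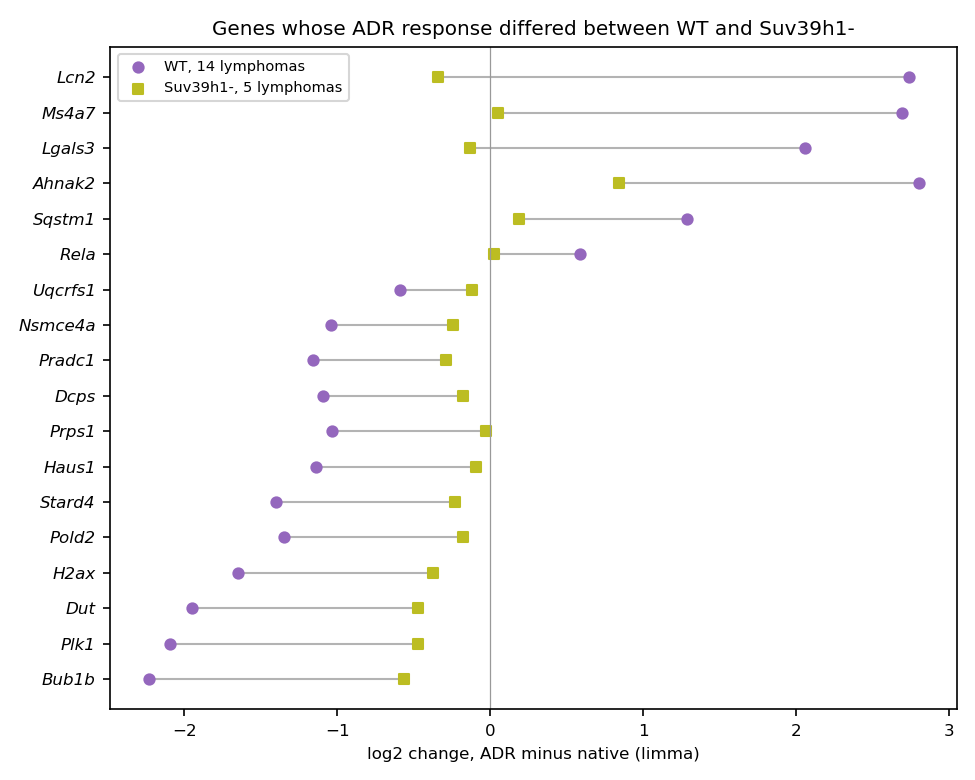
Log2 changes (ADR minus native, x axis) in the 14 WT lymphomas (circles) and the 5 Suv39h1- lymphomas (squares) for 18 genes named in the text whose responses differed at adjusted p under 0.05. In each row the WT change is farther from 0 than the Suv39h1- change, which the choice of named genes, made mostly by their WT changes, favours.

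The WT response was set against that of the 5 Suv39h1- lymphomas, in the same fit. The marker lists of other cells also changed unequally: the median of the fibroblast list was 1.81 in WT and 0.09 in Suv39h1- lymphomas, and that of the macrophage list 1.61 in WT and 0.33 in Suv39h1- lymphomas. Their part in the differences was not tested. The responses differed for 62 genes (0.341% of those tested), with the WT minus Suv39h1- difference above 0 for 34 and below 0 for 28. Of the 62, 54 were also called in WT. Before adjustment 3424 genes had a limma p under 0.05, and only 5 Suv39h1- lymphomas entered the comparison. A gene outside the 62 is therefore not shown to respond alike in both groups. The count depended on the scaling between arrays, with 251 when each array was centred on its median (26 above 0 and 225 below) and 95 after quantile normalization (37 above 0 and 58 below). Among the named genes the differences lay on both sides. Haus1 fell by 1.14 in WT and had a change of -0.09 in Suv39h1- lymphomas, a difference of -1.05 (SE 0.18, adjusted p = 0.0293). Pold2 differed by -1.18 (SE 0.21, adjusted p = 0.0293), with changes of -1.35 in WT and -0.18 in Suv39h1- lymphomas. On the rising side Lgals3 differed by 2.19 (SE 0.42, adjusted p = 0.0312), with changes of 2.06 in WT and -0.13 in Suv39h1- lymphomas. Rela differed by 0.57 (SE 0.13, adjusted p = 0.0473), with 0.59 in WT and 0.02 in Suv39h1- lymphomas.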

How the data were processed

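RNA of 22 lymphoma cultures was measured on 47 Affymetrix arrays from 3 µg of total RNA each, per the labels. The authors deposited 1 log2 value per probe set and array. The submitters' processing notes name RMA, oligo and R 3.5.0. Of 45101 probe sets 34958 carried 1 gene symbol in the platform annotation, 932 several and 9211 none here. Each gene was represented by its brightest probe set over the 47 arrays, which gave 18194 genes, with no filter on dim genes. A log2 difference understates changes of dim genes, and the number of arrays limits the precision.

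Changes were fitted with limma 3.58.1 (lmFit and eBayes, R 4.3.3) over all 47 arrays, with the 22 cultures as blocks and 4 treatment terms, two-sided, adjusted by Benjamini-Hochberg. The terms were ADR in WT, in Suv39h1- and in Suv39h1ER cultures, and ADR with 4OHT in Suv39h1ER cultures. The number 5043 occurs in WT and Suv39h1ER cultures, and 4936 in Suv39h1- and Suv39h1ER cultures, each fitted as its own block. The pairing comes from the series design text, which describes matched pairs. The deviations of both arrays of a pair from their group means correlated above 0.1 in 10 of 14 pairs (-0.23 to 0.56). In 6 of 14 pairs the ADR array correlated best with its own native array. Replicates are lymphomas as numbered in the labels. On simulated data for WT ADR vs native (18194 genes) the fit recovered 73.1% of genes changed by 0.5, 92.5% by 1 and 100% by 2, and called 12 unchanged genes. The simulation changed only a small share of the genes and drew its noise independently for each gene. In the real data 30.2% of genes were called, so these rates need not hold there. RNA quality was tested by exact sign flips.

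The members, the 73 gene lists (1274 members, 1177 measured) and the motifs were chosen with earlier results of these data known. Named genes are the 15 called genes in each direction that changed most among those moving alike in 14 of 14 pairs, per list the 2 members of smallest p, 8 genes of the model, the 8 steadiest in each direction by moderated t, the 10 with the widest spread, the 10 that rose most in lymphoma 1467 and a promoter holder per motif. The text leaves some out. The alternatives tried concerned the arrays fitted, the pairing, the probe set, the scaling, dim genes, the variance model, the alike lymphomas, the fibroblast covariate and each lymphoma left out. Scan dates and detection calls were not used here. Suv39h1 itself was not analysed here, and the genotypes are those of the labels.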

Additional observations from a re-analysis of the deposited data

Results flagged for a closer look

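The responses of 18 genes named in the report differed between WT and Suv39h1- lymphomas at adjusted p under 0.05 in limma. Values are WT minus Suv39h1- differences of the log2 change. Of the genes of mitosis and replication, Bub1b differed by -1.66 (SE 0.35, adjusted p = 0.046), Plk1 by -1.62 (SE 0.34), Haus1 by -1.05 (SE 0.18), Pold2 by -1.18 (SE 0.21) and Dut by -1.48 (SE 0.32). Of the repair genes, Nsmce4a differed by -0.81 (SE 0.16) and H2ax by -1.28 (SE 0.28). Of the metabolic genes, Stard4 differed by -1.16 (SE 0.25), Prps1 by -1.0 (SE 0.21) and Uqcrfs1 by -0.48 (SE 0.11). The RNA end scavenger Dcps differed by -0.91 (SE 0.17) and Pradc1 by -0.87 (SE 0.19). On the rising side were Sqstm1 at 1.10 (SE 0.24), Lgals3 at 2.19 (SE 0.42), Rela at 0.57 (SE 0.13), the macrophage gene Ms4a7 at 2.64 (SE 0.55), Lcn2 (lipocalin 2, listed among neutrophil markers) at 3.08 (SE 0.64) and Ahnak2 at 1.96 (SE 0.44). The macrophage list had a median change of 1.61 in WT and 0.33 in Suv39h1- lymphomas, and its part in these differences was not tested. The adjusted p of the 18 lay between 0.0293 and 0.0473. The WT changes were called for each of them, and for 54 of all 62 genes whose responses differed. Named genes were chosen mostly by their WT changes, which favours a call in WT and a larger change there. The comparison set 14 WT against 5 Suv39h1- lymphomas.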

How the results depend on the processing

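With the fibroblast covariate the count of called genes was 2151 in place of 5489, and that of genes with a change of at least 1 was 587 in place of 977. This fit uses only the 14 differences. Under all other alternatives both counts were within 1.5 times the main count. Without each lymphoma in turn 4920 to 5694 genes were called, and 878 to 1054 with a change of at least 1. With no replicate block 4656 genes were called, and the block moved no count of the ADR response by over 1.5 times. The WT minus Suv39h1- count of 62 was 251 with centred arrays, 95 after quantile normalization, 122 with only genes above the median level, 28 with a trended robust variance, 27 with the probe set of largest variance and 13 with no replicate block, and the cause was not tested. The named genes depended most on the fibroblast covariate, an alternative added for them after seeing the data. Of 93 named genes called higher, 46 were also called higher with it, and of 77 called lower, 53 were also called lower. It turned the sign of 12 named genes, none of them called there: Fbl to 0.12, Myc to 0.0589, Cd79a to 0.18, Bach2 to 0.60, Slc3a2 to -0.0948, Dusp6 to -0.0127, Egr1 to -1.62, Pvr to -0.0276, Dcn to -0.71, Pfn2 to -1.28, Prnp to -0.16 and Cdkn2a to -0.0149. Dcn belongs to the list that supplied the covariate. Under the other alternatives, 3918 of 3945 values of the 172 named genes kept their direction and side of the threshold. Map1lc3b turned to -0.21 and Syk to -0.24 on the probe set with the largest variance. Cdkn2a, which was not called under any setting, turned to -0.0969 with centred arrays and -0.0539 after quantile normalization, and ranged from -0.0508 to 0.0663 with each lymphoma left out. Of 73 gene lists, 11 had more calls in the opposite direction at a fibroblast list change of 0. Among them were ribosome biogenesis and the fibroblast list itself, which supplied the covariate. The count was 2 with centred arrays, 1 after quantile normalization and 0 with the alike lymphomas counted once. The alternatives on scaling and alike lymphomas for lists were chosen after seeing the data. Detection was not assessed, so dim genes are the least certain.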
